A study of Mus musculus with 2 samples.

Results

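The members are 10 mouse genes of inflammatory signaling, of 31053 features in the count matrices: the cytokines Il1b, Tnf and Il6, the chemokines Ccl2, Ccl3, Ccl4, Ccl9 and Cxcl2, the receptor Tnfrsf1a and the inhibitor Nfkbia. The rule lists the genes by name and holds no threshold on a measured value. Their UMIs (unique molecular identifiers, one per captured RNA molecule) were read in barcodes with at least 2000 UMIs and under 10% mitochondrial UMIs. The study asked what PDGFRβ, a receptor of mural cells and mesenchyme, contributes to blood stem cell formation in the embryo. Its single-cell experiment compared the whole aorta-gonads-mesonephros region (AGM) of E11 embryos that were PDGFRB +/+ (WT) with that of embryos that were PDGFRB -/- (KO), in which the receptor is lost in every cell and not in a chosen lineage. There was 1 10x Chromium 3′ library per genotype. No test of genotype was therefore possible, and no p-value is given. The labels name neither the number nor the sex of the embryos in a library.

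Cytokines and chemokines are secreted proteins through which cells call in and switch on immune cells. Il1b and Tnf encode the interleukin-1β and TNF that start an inflammatory response, and Il6 a cytokine that follows them. Ccl2 attracts monocytes, Ccl3 and Ccl4 attract monocytes and lymphocytes, Ccl9 is a CCR1 ligand of rodents, and Cxcl2 attracts neutrophils through CXCR2. TNF binds the receptor encoded by Tnfrsf1a, which sets free the transcription factor NF-κB from its inhibitor IκBα, the product of Nfkbia. NF-κB then switches on many cytokine genes and Nfkbia itself, which closes a feedback loop. In the embryo the macrophages that come from the yolk sac are among the first cells able to make these proteins, and inflammatory signals are known to take part in the formation of blood stem cells in the AGM.

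The genes lie on 6 mouse chromosomes in the GRCm38 assembly, the build the authors aligned to. Ccl2 (chr11:82035571-82037453, plus strand), Ccl9 (chr11:83572919-83578636, minus), Ccl3 (chr11:83647844-83649355, minus) and Ccl4 (chr11:83662584-83664683, plus) share the chemokine cluster of chromosome 11. Cxcl2 (chr5:90903871-90905938, plus) and Il6 (chr5:30013114-30019981, plus) lie on chromosome 5. Il1b is at chr2:129364570-129371139 (minus), Tnf at chr17:35199381-35202007 (minus), Tnfrsf1a at chr6:125349362-125362484 (plus) and Nfkbia at chr12:55489410-55492647 (minus), in the GENCODE annotation.

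The 250 bases before the annotated start of 6 of the genes are given first because their RNAs fell into different patterns across cells. Cxcl2 and Il1b were concentrated in few macrophage-like cells, which in WT were mostly high in Ccl3 and Nfkbia too. Ccl3 was also read in many other macrophage-like cells. Ccl9 was spread over most macrophage-like cells, and Il6 was hardly read at all. Sequences are from RefSeq (GRCm38.p6), 5′ to 3′ on the strand of the gene, which had entries for 8 of the 10 genes. The start used is that of RefSeq, which for Cxcl2, Ccl3 and Tnfrsf1a differs from the GENCODE start printed above. The Cxcl2 window therefore runs past its GENCODE start. Capitals mark matches to GGGNNTTTCC, a form of the site that NF-κB proteins bind, on either strand. The windows are chr5:90903649-90903898 (plus strand) for Cxcl2, chr12:55492648-55492897 (minus) for Nfkbia, chr5:30012864-30013113 (plus) for Il6, chr11:83578637-83578886 (minus) for Ccl9, chr2:129371140-129371389 (minus) for Il1b and chr11:83649379-83649628 (minus) for Ccl3.
Cxcl2: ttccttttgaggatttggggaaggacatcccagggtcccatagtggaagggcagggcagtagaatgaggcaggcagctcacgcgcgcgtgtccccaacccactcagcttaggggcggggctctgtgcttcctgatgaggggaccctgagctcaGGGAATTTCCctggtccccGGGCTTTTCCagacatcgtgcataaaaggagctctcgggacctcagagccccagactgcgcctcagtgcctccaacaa
Nfkbia: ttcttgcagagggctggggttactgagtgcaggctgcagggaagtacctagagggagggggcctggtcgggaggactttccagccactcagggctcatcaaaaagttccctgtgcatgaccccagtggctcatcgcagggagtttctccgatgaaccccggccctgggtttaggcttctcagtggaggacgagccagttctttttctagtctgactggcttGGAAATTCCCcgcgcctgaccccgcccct
Il6: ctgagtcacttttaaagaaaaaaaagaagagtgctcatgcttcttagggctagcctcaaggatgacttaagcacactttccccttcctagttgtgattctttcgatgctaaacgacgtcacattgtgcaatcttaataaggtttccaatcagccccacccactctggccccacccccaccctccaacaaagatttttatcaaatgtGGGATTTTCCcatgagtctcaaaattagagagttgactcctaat
Ccl9: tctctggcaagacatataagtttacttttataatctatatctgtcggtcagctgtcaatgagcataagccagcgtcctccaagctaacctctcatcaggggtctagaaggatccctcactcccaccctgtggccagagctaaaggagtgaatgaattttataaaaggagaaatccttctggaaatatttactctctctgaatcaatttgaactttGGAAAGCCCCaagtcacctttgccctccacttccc
Il1b: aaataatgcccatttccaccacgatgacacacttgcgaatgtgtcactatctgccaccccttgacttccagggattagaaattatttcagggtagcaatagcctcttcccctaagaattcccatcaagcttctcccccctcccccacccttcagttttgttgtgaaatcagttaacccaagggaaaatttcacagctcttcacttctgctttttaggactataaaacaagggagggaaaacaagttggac
Ccl3: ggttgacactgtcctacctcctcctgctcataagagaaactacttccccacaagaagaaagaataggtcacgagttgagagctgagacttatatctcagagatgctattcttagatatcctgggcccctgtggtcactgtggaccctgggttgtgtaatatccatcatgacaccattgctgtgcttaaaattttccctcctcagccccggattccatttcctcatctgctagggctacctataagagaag
The Cxcl2 window held 2 matches, which began 97 and 78 bases before the RefSeq start. Nfkbia, Il6 and Ccl9 held 1 each, beginning 29, 44 and 35 bases before the start, those of Nfkbia and Ccl9 on the opposite strand. The windows of Il1b, Ccl3, Tnf and Tnfrsf1a held none, which says only that these letters are not in the 250 bases searched. The Tnfrsf1a window (chr6:125349473-125349722) lay within the GENCODE gene, so the bases before its GENCODE start were not searched. Of all 32851 RefSeq promoter windows of this length, 464 (1.41%) held a match. A match thus stood before Il6, which was hardly read, and none before Il1b and Ccl3.

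After both filters 8253 WT cells (median 13321 UMIs) and 8165 KO cells (median 12391 UMIs) remained. Cells were put into classes by counting, in each cell, the distinct genes read from marker lists, without clustering. Of these, 167 WT cells (2.02%) and 142 KO cells (1.74%) had at least 7 of 15 macrophage markers and are called macrophage-like. Their leading genes against all other cells included C1qa, C1qb, C1qc, Mrc1, Cx3cr1, Aif1 and Trem2 in both libraries. These are markers of the gate itself, so the gate favours them. Fcrls, which is not a marker, was also among the leading genes of both. Erythroid-like cells (733 WT, 215 KO), which should lack these RNAs, served as the background. Pdgfrb itself was read at 43.1 CPM (counts per 1000000 UMIs) in the WT library against 7.09 CPM in KO, and a 3′ count does not show which part of a transcript is lost. Xist was read at 793 CPM in the WT library against 0.415 CPM in KO, and the sum of Y-linked Ddx3y, Eif2s3y, Kdm5d and Uty at 0.0266 against 163 CPM, so genotype, sex and library cannot be told apart. The 2 sets of cells shared 20 barcodes. All intervals are 95% and exact (Poisson for a CPM, binomial for a share) and cover counting error only. They treat UMIs, or for a share of cells the cells, as independent. They leave out the spread between embryos and, for UMIs, between cells. For genes whose UMIs lay in few cells, such as Il1b, Tnf and Cxcl2, they are too narrow.

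Most RNA of the secreted members came from macrophage-like cells. They held 5875 of the 6473 UMIs of the 8 secreted genes in WT, a share of 90.8% (90.0 to 91.5), and 4564 of 5455 in KO, a share of 83.7% (82.7 to 84.6), from 2.42% and 1.81% of all UMIs. The summed level was 1618 CPM (1577 to 1659.7) in the WT and 1773 CPM (1722 to 1825) in the KO macrophage-like cells. In erythroid-like cells it was 1.44 CPM in the WT and 1.86 CPM in the KO library, and in endothelial-like cells 1.14 and 1.99 CPM. Cells that met several gates, 97 in WT and 72 in KO, were set apart as possible doublets, and no doublet caller was run. They held 39 UMIs of the secreted genes in WT and 144 in KO, 58 of these of Ccl4. In barcodes with at most 100 UMIs, which carry free RNA, the secreted genes were also read, for example Ccl4 at 12.1 CPM (WT) and 8.91 CPM (KO).

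**Figure D1:**
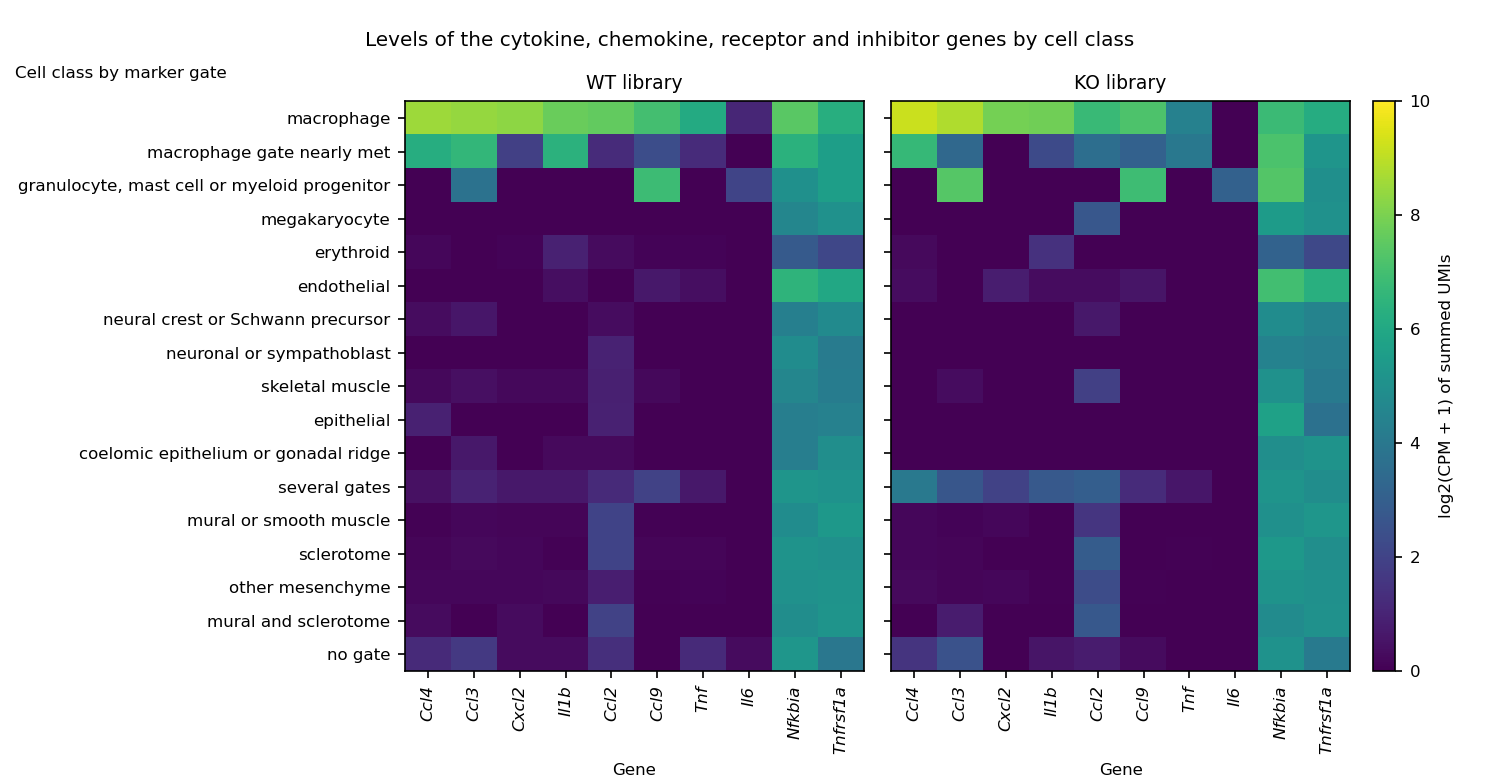
Levels of the 10 genes by cell class (rows) in the WT library (left) and the KO library (right), coloured by log2(CPM + 1) of the summed UMIs. The secreted genes other than Il6 are bright in the macrophage row and dark in nearly all others. Ccl9 and, in KO, Ccl3 are also read in the granulocyte row. Ccl4 and, in WT, Ccl3 and Il1b are also read in the row of cells that nearly met the macrophage gate. Ccl2 is also read in mesenchyme rows, and Nfkbia and Tnfrsf1a are read in every class. Il6, with few UMIs in all, is dark in the macrophage row.

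Among the chemokines, Ccl4 was read in WT macrophage-like cells at 367 CPM (348 to 388) and in KO ones at 579 CPM (550.2 to 609). Ccl3 had 341 CPM (322 to 361) in the WT cells, against 453 CPM (428 to 480) in the KO cells. Both neighbouring genes were at or near 0 in erythroid-like cells, where Ccl4 had 2 UMIs in WT and 1 in KO and Ccl3 had none. Outside the macrophage gate Ccl3 was also read in the class of granulocyte, mast cell or myeloid progenitor markers, with 4 UMIs in 9 WT cells and 42 UMIs in 12 KO cells. Cells with 3 to 6 macrophage markers, just short of the gate, held 72 UMIs of Ccl3 in WT (98.2 CPM) and 5 in KO (9.42 CPM), and 55 UMIs of Ccl4 in each library (75.0 and 104 CPM).

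Cxcl2, the neutrophil chemokine, was the member most closely tied to macrophage-like cells. They held 98.2% of its 1158 UMIs in WT and 96.6% of its 644 UMIs in KO. Its level in the WT cells was 313 CPM (295 to 332), against 242 CPM (223 to 261) in the KO cells. No UMI of Cxcl2 was read in the granulocyte, mast cell or progenitor class or in the megakaryocyte class of either library. Its receptor gene Cxcr2 had 1 UMI in the WT and 4 UMIs in the KO macrophage-like cells.

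Ccl9 was read in more macrophage-like cells than any other secreted member, and in a second blood class. Macrophage-like cells of WT had 127 CPM (116 to 139) and those of KO 145 CPM (131 to 160.4), and the granulocyte, mast cell or progenitor class had 116 and 119 CPM, from 37 and 31 UMIs. The counting intervals of Ccl9 in these 2 classes overlapped in both libraries. The leading genes of that class included Camp, Ngp and the gate markers S100a8 and S100a9, which neutrophil precursors make.

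The cytokine Il1b had 208 CPM (193 to 223) in the WT and 226 CPM (208 to 245) in the KO macrophage-like cells, with 89.0% and 94.0% of all its UMIs there. Erythroid-like cells, where it should be absent, had 12 UMIs of Il1b in WT and 8 in KO, or 0.867 and 1.66 CPM. The cells with 3 to 6 macrophage markers, a mixed class whose leading genes included mast cell Cpa3 and lymphoid Cd7 in both libraries and neutrophil Ngp in WT, held another 62 UMIs in WT and 2 in KO. Tnf had 68.0 CPM (59.8 to 77.05) in the WT and 20.2 CPM (15.1 to 26.5) in the KO macrophage-like cells, from 247 and 52 UMIs. Il6 was at the limit of detection: 6 UMIs were read in all WT cells and 2 in all KO cells, 4 of them in 2 WT macrophage-like cells and none in the KO macrophage-like cells, where a count of 0 allows up to 1.17 CPM. The granulocyte, mast cell or progenitor class held 1 Il6 UMI in WT and 2 in KO.

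**Figure D2:**
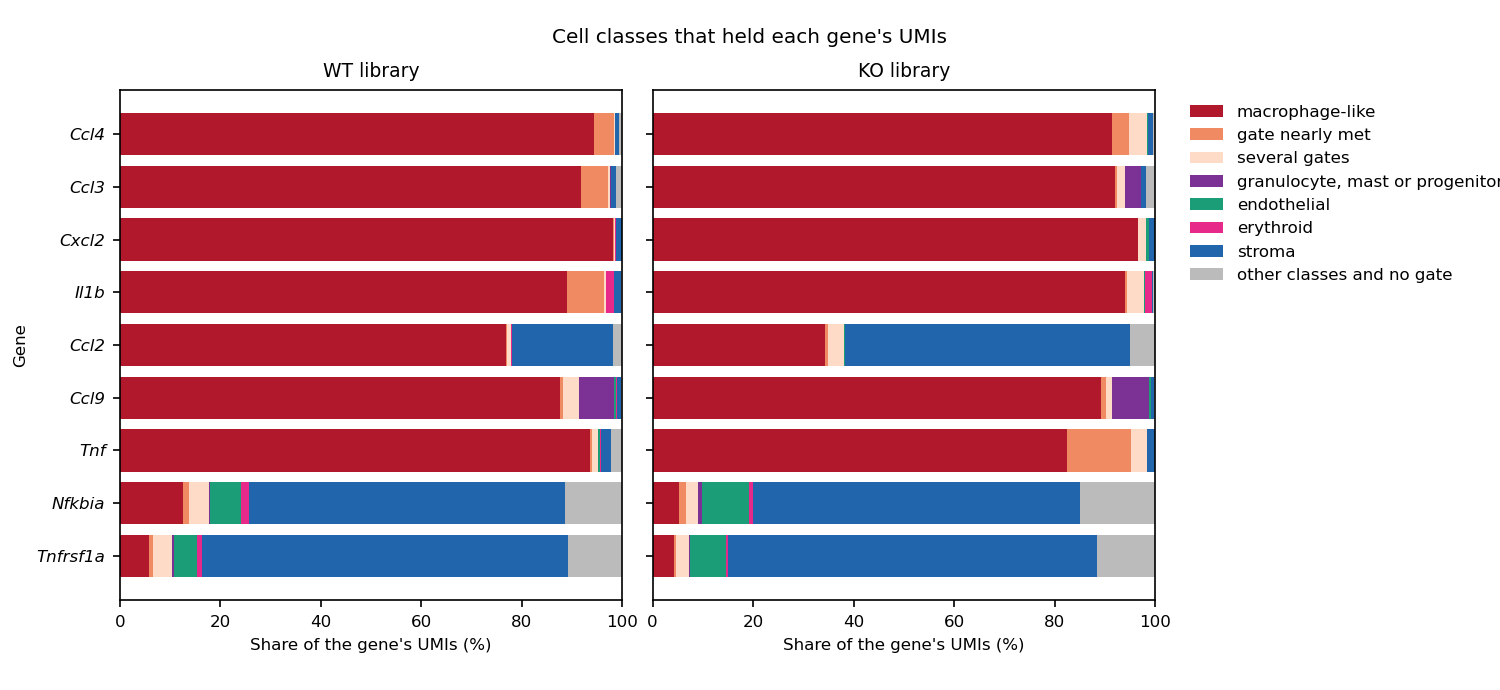
Share of each gene's UMIs (horizontal axis, percent) by the class of cell that held them, for the WT library (left) and the KO library (right). Macrophage-like cells hold 87.7 to 98.2% of every secreted gene shown in WT except Ccl2 (76.8%), and 82.5 to 96.6% in KO except Ccl2 (34.2%). Stromal cells hold most UMIs of Nfkbia and Tnfrsf1a in both libraries.

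Ccl2 was the exception among the secreted genes, since stromal cells also made it. Macrophage-like cells held 76.8% of its 907 UMIs in WT (74.0 to 79.6) but 34.2% of its 812 UMIs in KO (31.0 to 37.6). Stromal cells, defined here by mural, sclerotome or other mesenchyme markers and no blood, endothelial or other lineage gate, held 182 UMIs (20.1%) in WT and 460 UMIs (56.7%) in KO. A Ccl2 UMI was read in 109 of 5398 WT stromal cells, or 2.02% (1.66 to 2.43), and in 181 of 5797 KO stromal cells, or 3.12% (2.69 to 3.60). In the erythroid-like cells, whose median depth was 16902 UMIs in WT and 19999 UMIs in KO against 13386.5 and 12582 UMIs in stroma, it was read in 3 of 733 and 0 of 215 cells. Most of these stromal cells held no macrophage marker at all, 90 of the 109 in WT and 172 of the 181 in KO. With each cell thinned to 2000 UMIs the share of stromal cells with a Ccl2 UMI was 0.333% in WT and 0.656% in KO.

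Within the stroma Ccl2 stood at 3.0 CPM in mural or smooth muscle cells, 3.01 CPM in sclerotome cells and 0.786 CPM in other mesenchyme of the WT library. In the KO library the values were 1.91, 6.49 and 4.0 CPM. Free RNA alone would give 0.865 CPM in WT and 0.624 CPM in KO, at the rate at which erythroid-like cells held mesenchyme markers. Ccl2 was read at 0.217 CPM in WT erythroid-like cells and not at all in KO ones. The WT value of other mesenchyme lay between these 2 WT backgrounds, so whether it exceeded background cannot be told. The WT stromal cells with a Ccl2 UMI were led, against stromal cells without one, by Flt1, Ankrd1 and Rhox5, with the smooth muscle gene Actg2 at 736 against 79.6 CPM. The KO ones were led by Ankrd1, March11 and Crtac1, and Eln, which encodes elastin, was at 110.5 against 28.0 CPM. Ankrd1, a target of mechanical and YAP signaling, was the only gene among the 10 leading genes of both libraries, at 86.7 against 7.03 CPM in WT and 28.1 against 1.73 CPM in KO. Stromal cells with a Ccl2 UMI were deeper than all stromal cells, with medians of 19959 against 13386.5 UMIs in WT and 15347 against 12582 UMIs in KO. The part of depth and of the mix of stromal classes in these lists was not tested. Ccl7, the neighbour of Ccl2 and a ligand of the same receptor CCR2, was read in 22 WT and 51 KO stromal cells, and 4 and 24 cells held both.

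The receptor and the inhibitor were read in every class. Tnfrsf1a was highest in macrophage-like cells (76.0 CPM in WT, 67.3 to 85.5, and 72.3 CPM in KO, 62.2 to 83.4) and endothelial-like cells (62.6 CPM, 54.6 to 71.5, and 78.1 CPM, 69.7 to 87.2). The counting intervals of these 2 classes overlapped in both libraries, which does not show that their levels were equal. The mural, sclerotome and other mesenchyme classes stood at 31.1 to 39.1 CPM in WT and 29.9 to 37.2 CPM in KO, the cells with 3 to 6 macrophage markers at 47.7 and 35.8 CPM, and the granulocyte, mast cell or progenitor class at 47.1 and 30.8 CPM (15 and 8 UMIs), and erythroid-like cells were lowest at 3.39 and 3.52 CPM, close to the 4.4 and 4.23 CPM that free RNA alone would give. Nfkbia in WT stood at 174 CPM (160.5 to 188) in macrophage-like, 88.6 CPM (79.0 to 99.1) in endothelial-like and 28.1 to 33.9 CPM in the mesenchyme classes, with 83.2 CPM in the cells with 3 to 6 macrophage markers. In KO the macrophage-like cells (113 CPM, 100.4 to 127) and the endothelial-like cells (126 CPM, 116 to 138) overlapped, and the 12 cells of the granulocyte, mast cell or progenitor class stood at 158 CPM, from 41 UMIs, and the cells with 3 to 6 macrophage markers at 141 CPM, from 75 UMIs. Stromal cells held 72.9% of Tnfrsf1a UMIs in WT and 73.5% in KO. Of the UMIs of Tnf, which encodes its ligand, they held 1.89% and 1.59%, only 5 and 1 UMIs.

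Across macrophage-like cells the secreted genes were strongly uneven. Of the 167 WT cells, 29 held an Il1b UMI and 21 a Cxcl2 UMI, against 15 and 14 of the 142 KO cells. The 5 cells with the most UMIs held 62.6% of all Il1b in WT and 92.4% in KO, and 49.0% and 88.4% of all Cxcl2. For Tnf 1 WT cell with 101 UMIs held 40.9% of the total, and that cell also held 169 UMIs of Cxcl2, 130 of Ccl2 and none of Il1b. In KO 2 cells held 179 and 144 UMIs of Il1b and 172 and 167 of Cxcl2.

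Ccl3 and Ccl4 were read more widely, Ccl3 in 76 WT and 70 KO cells and Ccl4 in 48 and 42. Ccl9 was read in 111 of 167 WT cells (66.5%) and 83 of 142 KO cells (58.5%), and no cell held more than 30 UMIs of it. Tnfrsf1a, read in 116 and 82 cells with at most 9 UMIs in a cell, was the most even. For Nfkbia the 5 leading cells held 45.0% of UMIs in WT and 36.4% in KO, against 21.4% and 31.6% for Ccl9. After each cell was thinned to 2000 UMIs, Il1b was read in 11.4% of WT and 7.04% of KO cells, Ccl3 in 22.8% and 28.2%, Ccl4 in 16.2% and 19.7%, and Tnf in 5.99% and 4.23%.

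**Figure D3:**
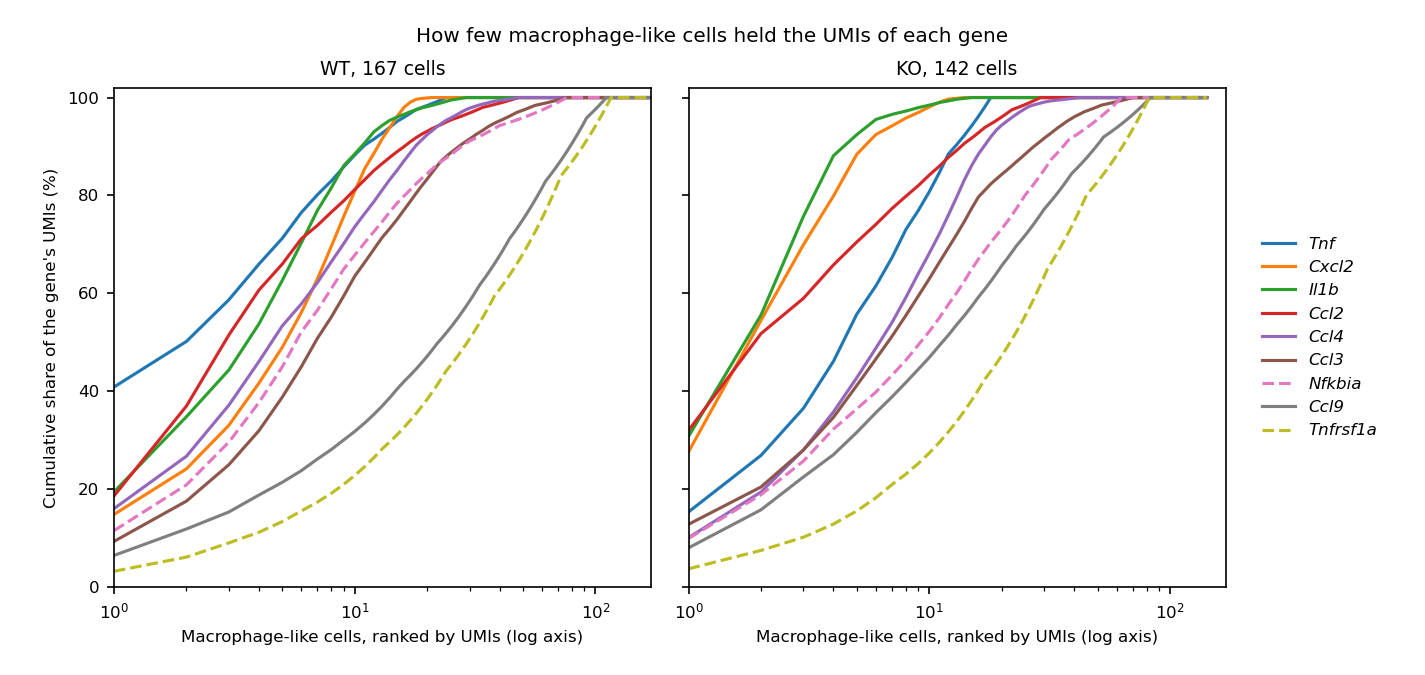
Cumulative share of each gene's UMIs (vertical axis, percent) against macrophage-like cells ranked by their UMIs of that gene (horizontal axis, log scale), for 167 WT cells (left) and 142 KO cells (right). Curves for Il1b and Cxcl2 rise steeply, to 92.4% and 88.4% within 5 cells in KO, while Ccl9 and Tnfrsf1a rise slowly.

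The genes were high in many of the same cells. Of the 17 WT cells with at least 10 Cxcl2 UMIs, 15 also held at least 10 of Ccl3, 13 at least 10 of Nfkbia, 12 at least 10 of Ccl4 and 10 at least 10 of Il1b. Nfkbia stood at 1263 CPM in these cells and 49.7 CPM in the other WT macrophage-like cells. Of the 8 such KO cells, 6 held at least 10 UMIs of Ccl3, 6 of Ccl4, 4 of Il1b and 3 of Nfkbia, and Nfkbia stood at 619 against 79.9 CPM. Ccl3 and Ccl4 were high together in 17 of 24 WT cells with at least 10 Ccl3 UMIs and in 17 of 23 KO cells. Ccl9 was higher in the cells with high Cxcl2 by a smaller factor, at 264 against 112 CPM in WT and 221 against 139.9 CPM in KO.

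At least 1 UMI of Il1b, Tnf, Ccl3, Ccl4 or Cxcl2 was read in 93 of 167 WT cells, or 55.7% (47.8 to 63.4), and in 80 of 142 KO cells, or 56.3% (47.8 to 64.6). The shares overlapped. At least 10 such UMIs were read in 35 WT and 34 KO cells, and UMIs of 3 or more of the 5 genes in 27 and 24. The cells with and without such a UMI had like depths, with medians of 19495 and 18732.5 UMIs in WT and 16605 and 15186 UMIs in KO, and like mitochondrial shares, with medians of 5.18% and 5.02% in WT and 5.32% and 4.76% in KO.

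Other genes set the same cells apart, and these values are descriptions, since cells of 1 library are not replicates. The 10 leading genes of the WT cells with such a UMI were Cxcl10, Dusp2, Ccrl2, Rgs1, Nr4a1, Ccl2, Il1a, Junb, Tnfaip3 and Fos. Those of the KO cells were Rgs1, Ccrl2, Atf3, Dusp2, Ccl7, Nr4a1, Zfp36, Nr2f2, Il1a and Gadd45b, and 5 genes (Ccrl2, Dusp2, Il1a, Nr4a1 and Rgs1) were on both lists. Il1a, the second interleukin-1 gene, had 90 UMIs in the 93 WT cells with and 0 in the 74 without, and 55 and 1 in KO. Dusp2, a phosphatase of MAP kinases, had 263 and 2 UMIs in WT and 130 and 4 in KO. Ccrl2, a chemerin-binding receptor, had 218 and 2 in WT and 209 and 2 in KO.

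By list, the NF-κB feedback and target genes were higher in the cells with a UMI, with a median ratio of CPM of 4.15 over 13 genes in WT and 3.04 in KO, and 9 and 7 of the 13 were 2-fold or more higher. Lists count genes with at least 10 UMIs, and over all such genes 4.44% in WT and 3.76% in KO were 2-fold or more higher. Nfkbiz, an IκB protein that acts in the nucleus, was at 204 and 11 UMIs in WT and 117 and 7 in KO. Nlrp3, the inflammasome sensor needed to process interleukin-1β, was at 136 and 8 UMIs in WT and 68 and 11 in KO. The 14 immediate early and heat shock genes, which also rise when tissue is dissociated, had medians of 9.63 in WT and 3.64 in KO, and 13 and 11 of them were 2-fold or more higher, while Hspb1 was lower in WT (5 and 8 UMIs). With cells split at 10 such UMIs instead, the medians were 9.90 and 9.12 for these genes and 5.41 and 4.48 for the NF-κB feedback and target genes. Their part in the cytokine levels was not tested. Fos was at 456 against 21.2 CPM in WT and 414 against 75.4 CPM in KO.

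The signaling genes between receptor and NF-κB did not follow. Their medians were 1.03 in WT and 1.00 in KO over 13 genes, and none was 2-fold different in either library. With the split at 10 UMIs the medians were 0.792 and 0.867, with 1 gene 2-fold higher and 1 lower in WT and 1 lower in KO. Among the NF-κB subunits Rel was at 98 and 25 UMIs in WT and 104 and 25 in KO, and Rela at 52 and 39 in WT and 60 and 22 in KO. The receptors had medians of 1.09 and 0.840, and Ccr2, the CCL2 receptor of monocytes, was lower in the cells with a UMI, at 10 and 36 UMIs in WT and 25 and 36 in KO.

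**Figure D4:**
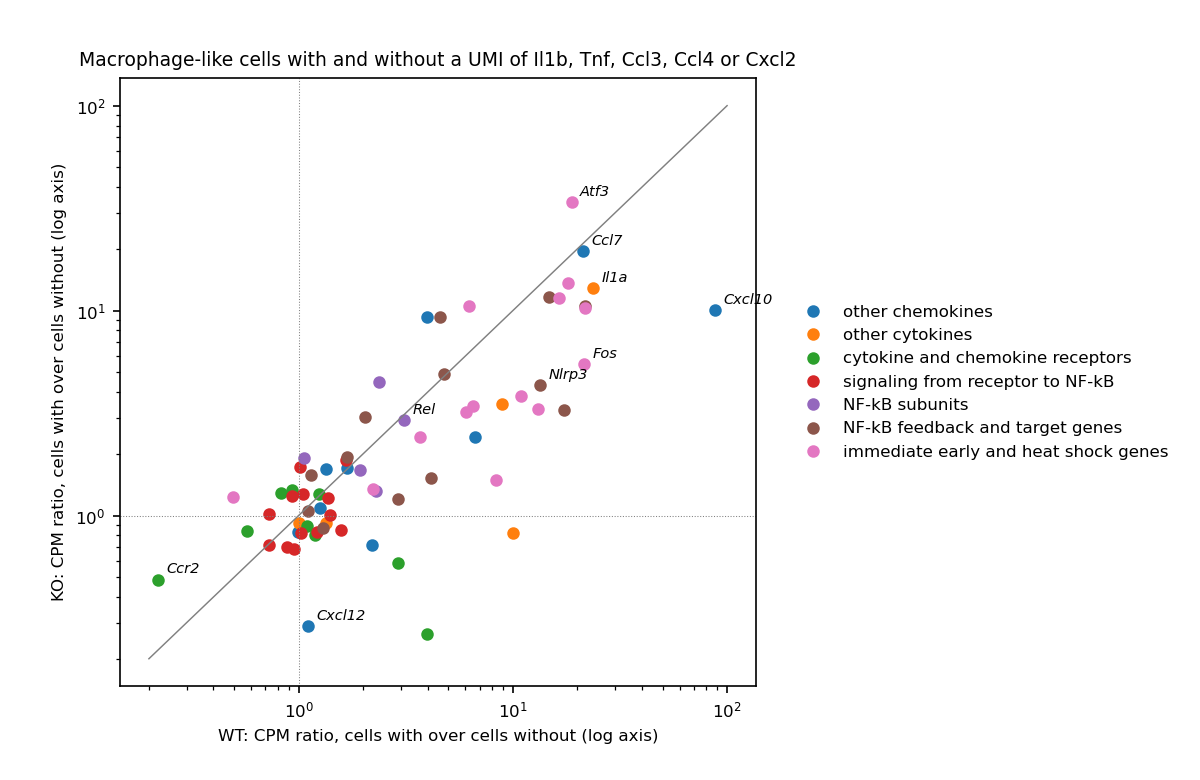
CPM ratio of each companion gene between macrophage-like cells with and without a UMI of Il1b, Tnf, Ccl3, Ccl4 or Cxcl2, in WT (horizontal, log axis) and KO (vertical, log axis), coloured by list, with counts under 3 in the cells without set to 3. Of the 69 genes with at least 10 UMIs in each library, 26 were 2-fold or more higher in both, most of them NF-κB targets and immediate early genes, while signaling genes lie near 1.

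Between the libraries, the summed secreted genes of macrophage-like cells differed little and individual genes went in different directions. The log2 of KO over WT of the summed level was 0.13 (0.08 to 0.19), and it turned to -0.057 without the 5 cells of each library with the most UMIs and to -0.077 with 1 fewer marker in each gate. Of the 9 members with at least 10 UMIs, 1 (Tnf) differed 2-fold or more, against 7.58% of the 11719 genes with at least 10 UMIs in these cells. Tnf was lower in KO by a log2 value of -1.75 (-2.21 to -1.32). Without the 1 cell of each library with the most UMIs it was -1.24. In KO no cell held more than 8 Tnf UMIs, while 6 WT cells held at least 10.

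Ccl4 and Ccl3 were higher in KO, by 0.66 (0.55 to 0.76) and 0.41 (0.29 to 0.53) on the log2 scale. Both kept this direction without the 5 leading cells, at 0.97 and 0.37. With 1 fewer marker per gate they stood at 0.41 and 0.06. In the cells just short of the macrophage gate Ccl3 was lower in KO, at -3.38 (-5.05 to -2.09). Ccl4 stood at 0.47 (-0.10 to 1.03) in those cells. The leading genes of that class included Ngp and Lcn2 only in WT, and Trbc2 and Cd74 only in KO. Its ratios may therefore compare unlike cells. In macrophage-like cells the size of the Ccl3 difference changed with 1 fewer marker per gate. Over all cells Ccl3 did not differ beyond counting error, at -0.01 (-0.12 to 0.10), and Ccl4 was higher in KO by 0.28 (0.18 to 0.39). These values over all cells also depend on the share of UMIs from macrophage-like cells, 2.42% in WT and 1.81% in KO. Ccl2 was lower in KO macrophage-like cells by -0.83 (-1.04 to -0.63), and by -1.03 without the 5 leading cells. Cxcl2 was lower by -0.37 (-0.52 to -0.23), which became -2.51 without the 5 leading cells. Il1b did not differ beyond counting error, at 0.12 (-0.04 to 0.28), and stood at -2.18 without the 5 leading cells, as 5 cells held most of its UMIs in KO. Ccl9, at 0.19 (-0.01 to 0.39), and Tnfrsf1a, at -0.07 (-0.35 to 0.20), did not differ beyond counting error. Nfkbia was lower in KO by -0.62 (-0.83 to -0.42). In the 75 WT and 67 KO macrophage-like cells with under 5% mitochondrial UMIs, Ccl4 and Ccl3 were higher in KO by 1.48 and 1.34, and Nfkbia, Tnf and Il1b lower by -1.64, -2.42 and -0.68.

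Companion genes of the macrophage-like cells were likewise mixed. Of 14 other chemokines with at least 10 UMIs, 3 were 2-fold or more lower in KO and 1 higher, with a median log2 of 0.22. Cxcl10, an interferon-induced chemokine, had 450 UMIs in WT and 43 in KO (log2 -2.89, -3.38 to -2.44), and Cxcl12, which stromal cells make in quantity, 292 and 65. Ccl12, a CCR2 ligand of mice, had 301 UMIs in WT and 399 in KO (0.90, 0.68 to 1.12). Of 13 NF-κB feedback and target genes, 3 were 2-fold or more lower in KO, none was 2-fold higher, and the median was -0.32. The 3 were Bcl3 (log2 -1.35, 36 UMIs in WT and 10 in KO), Tnfaip2 (-2.16, 82 and 13) and Ptgs2 (-1.55, 66 and 16). Their values without the leading cells were not computed. Of all 11719 genes with at least 10 UMIs in these cells, 7.58% differed 2-fold or more, 583 lower and 305 higher in KO. Their median was -0.04. The 13 signaling genes had a median of 0.04 and the 14 immediate early and heat shock genes a median of -0.02, with no gene 2-fold different in either list, and Atf3 at 0.86 (0.67 to 1.05).

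Ccl2 went the other way in the stroma. It was higher in KO stromal cells by a log2 value of 1.32 (1.06 to 1.57). With the free RNA estimate subtracted it was 2.02, but that estimate was above the Ccl2 level of erythroid-like cells and may take off too much. Of the 7 members with at least 10 UMIs in stroma, 2 differed 2-fold or more, Ccl2 and Il1b (12 and 2 UMIs), against 8.02% of 17436 genes. Il1b lay at background there, at 0.121 CPM (WT) and 0.0198 CPM (KO). Erythroid-like cells held it at 0.867 and 1.66 CPM, and the free RNA estimates were 1.15 and 0.208 CPM. By class, Ccl2 was higher in KO in other mesenchyme by 2.35 (1.86 to 2.87), in sclerotome cells by 1.11 (0.70 to 1.54) and in skeletal muscle cells by 1.74 (0.36 to 3.45). The muscle value rests on 5 UMIs in WT and 32 in KO. The WT levels of other mesenchyme (0.786 CPM) and skeletal muscle (0.820 CPM) lay between the erythroid-like level (0.217 CPM) and the free RNA estimate (0.865 CPM). The sizes of these 2 ratios are therefore uncertain. In mural or smooth muscle cells Ccl2 was lower, at -0.65 (-1.33 to -0.0015). Ccl7 was also higher in KO stroma, with 27 and 79 UMIs (1.53, 0.88 to 2.21). The 14 immediate early and heat shock genes had no common direction in the stroma, with a median log2 of -0.01, 6 intervals above 0 and 6 below. Fosb and Jun were higher in KO by 0.81 and 0.49, Zfp36 and Atf3 lower by -0.39 and -0.26, and the heat shock genes Hspa1a and Hspb1 lower by -0.60 and -0.92. The part of these differences, and of free RNA, in the Ccl2 result was not tested. Over all cells, Ccl2 did not differ beyond counting error between the libraries (-0.08, -0.22 to 0.06). That value also depends on the share of UMIs each class held, which for macrophage-like cells was 2.42% in WT and 1.81% in KO.

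**Figure D5:**
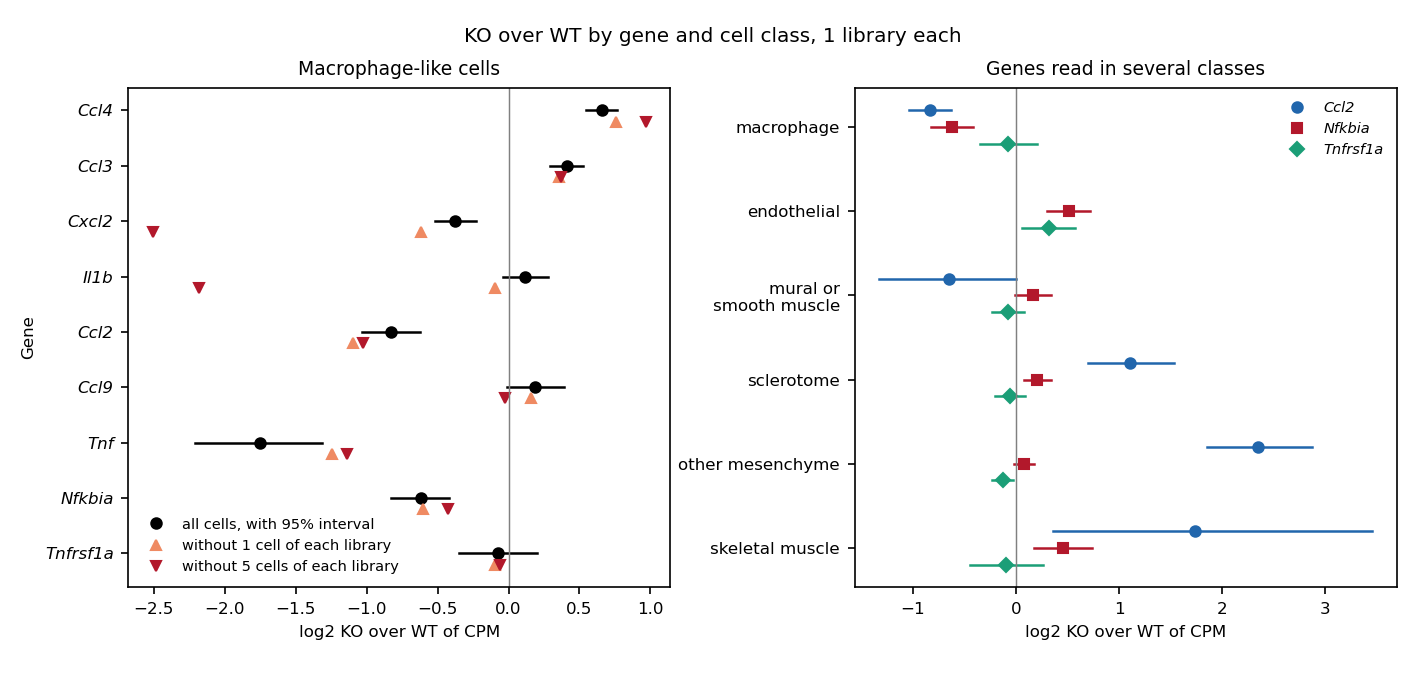
log2 of KO over WT of CPM (horizontal axis) with exact 95% counting intervals, for 9 genes in macrophage-like cells (left, with the values after leaving out the 1 or 5 leading cells of each library) and for Ccl2, Nfkbia and Tnfrsf1a in 6 classes (right). Removing 5 cells moves Cxcl2 to -2.51 and Il1b to -2.18, and Ccl2 lies below 0 in macrophage-like cells and above 0 in sclerotome, other mesenchyme and skeletal muscle cells.

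Of the 16 classes outside the macrophage gate, Nfkbia was higher in KO beyond counting error in 8 and not in the other 8. Its value was below 0 in 4. All these classes come from the same 2 libraries. The share of all genes with an interval above 0 was not computed, so this count has no background beside it. Nfkbia was higher by 0.51 (0.30 to 0.72) in endothelial-like cells, 0.21 (0.08 to 0.34) in sclerotome cells and 0.45 (0.17 to 0.74) in skeletal muscle cells. It stood at 0.08 (-0.02 to 0.18) in other mesenchyme, the class with the most cells, and 0.16 (-0.01 to 0.34) in mural or smooth muscle cells. In endothelial-like cells the adhesion gene Icam1, an NF-κB target, had 40.6 CPM in the WT and 82.3 CPM in the KO library (log2 1.02, 0.73 to 1.31), and Nfkbiz had 11 UMIs in WT and 40 in KO. These were the 2 of 10 NF-κB feedback and target genes with at least 10 UMIs there that differed 2-fold. The median log2 of the 10 was 0.09, and Tnfaip2 was lower (-0.66, -1.07 to -0.26). The share of all genes that differed 2-fold was not computed for endothelial-like cells, so the 2 genes have no background beside them. Ier3 and Junb were higher there by 1.70 and 0.56, and Fos and Egr1 lower by -0.73 and -0.75, so the immediate early genes had no common direction. Tnfrsf1a differed little. In cells outside the blood and endothelial classes it was lower in KO by -0.13 (-0.20 to -0.07), and in endothelial-like cells higher by 0.32 (0.06 to 0.57). The first set keeps the cells of several gates, some of which may meet a blood or endothelial gate.

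Over the 17 classes of both libraries the genes whose log2(CPM + 1) was most like that of a member were, by Pearson's r over 34 class sums, Ms4a7 for Cxcl2 (r = 0.99), Ccr1 for Ccl9 (0.98), Lair1 for Ccl3 (0.97), Phf11b for Tnf (0.96), Bcl2a1b for Ccl4 (0.95), Siglech for Il1b (0.95), Ccl7 for Ccl2 (0.91), Gnai2 for Tnfrsf1a (0.92) and Pitpna for Nfkbia (0.91). The sums share 2 libraries, and most of these genes are read in few classes, so these values show in which classes a gene was read and carry no test. Ccl9 and the gene of its receptor, Ccr1, were both read in macrophage-like cells, Ccr1 at 104 CPM (WT) and 73.8 CPM (KO).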

How the data were processed

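The deposited files are unfiltered matrices of UMI counts per gene and barcode, made by the authors with Cell Ranger 3.1.0 on mm10/GRCm38 from 10x 3′ libraries, 1 per genotype. The totals were 179743201 UMIs in WT and 174597654 UMIs in KO. Barcodes with at least 2000 UMIs and under 10% mitochondrial UMIs were kept, which removed 954 WT and 992 KO barcodes for the second limit. The study called cells with EmptyDrops, so its cells are not these cells. Its authors also took out the KO cells in which PDGFRβ expression was detected. The main values here keep such cells. Classes came from counts of distinct markers, and the number a gate needs was set after marker counts per cell were seen. The members, the marker and companion lists and the rule for named genes were chosen with earlier results of these data known. Named genes are all members, the 10 genes with the highest ratio between macrophage-like cells with and without a UMI of 5 members, the 5 genes most like each member over classes (the first is printed), and companion genes by list.

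UMIs were summed per library and class and divided by the class total (CPM, counts per 1000000). A ratio is given where both libraries held at least 10 UMIs together. With 1 library per genotype no test was run. Intervals and thinning were tested on simulated data. The counts simulated for the intervals were Poisson, which the intervals assume. That test therefore cannot show that they hold for UMIs concentrated in few cells. Alternatives used edgeR 4.0.16 and DESeq2 1.42.0 only for scaling factors. Python 3.11.15, numpy 2.4.6 and scipy 1.17.1 were used.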

Additional observations from a re-analysis of the deposited data

Results flagged for a closer look

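Ccl2 was flagged because it went in opposite directions in 2 kinds of cell, lower in KO macrophage-like cells (log2 -0.83, -1.04 to -0.63) and higher in KO stromal cells (1.32, 1.06 to 1.57). Nfkbia was flagged in the same way, lower in KO macrophage-like cells (-0.62, -0.83 to -0.42) and higher in KO endothelial-like cells (0.51, 0.30 to 0.72) and, by a small amount, stromal cells (0.14, 0.07 to 0.21). With 1 library per genotype these differences between classes were not tested.

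Barcodes left out for their mitochondrial share also held cytokine RNA. Of the 954 WT barcodes left out, 6 met the macrophage gate and held 16 UMIs of the 8 secreted genes, or 147 CPM (84.1 to 239), 14 of them of Ccl9. Of the 992 KO barcodes left out, 8 met the gate and held 159 UMIs, or 2602 CPM (2213 to 3040), with 81 of Ccl4, 33 of Ccl3 and 25 of Cxcl2.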

How the results depend on the processing

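The share of secreted-gene UMIs held by macrophage-like cells was 90.8% in WT and 83.7% in KO. With mitochondrial UMIs under 5% it was 87.4% and 85.8%, and with 1 fewer marker per gate 88.8% and 78.8%. With the free RNA estimate subtracted, which was too high for several of these RNAs, it was 94.2% and 86.1%. In KO it was 86.2% with cells of several gates counted in each class and 85.3% without cells that held a Pdgfrb UMI. The log2 ratio of the summed secreted genes, 0.13, became 0.24 with mitochondrial UMIs under 5%, 0.21 without KO cells that held a Pdgfrb UMI, 0.19 in cells thinned to 2000 UMIs, 0.23 as a mean of CPM per cell and 0.041 without the 1 leading cell of each library. It turned to -0.077 with 1 fewer marker per gate and to -0.057 without the 5 leading cells. Nfkbia in macrophage-like cells went from -0.62 to -1.64 with mitochondrial UMIs under 5%. Tnfrsf1a in cells outside the blood and endothelial classes went from -0.13 to -0.24 in that setting and to -0.062 in thinned cells. The share of genes that differed 2-fold or more was 2.23% with at least 50 UMIs and 24.5% with at least 1 UMI in macrophage-like cells, and 4.0% and 21.6% in stroma. The causes were not tested, except that a lower UMI limit adds genes with few counts. Under all 15 alternatives Tnf and Ccl2 stayed lower in KO macrophage-like cells (-2.42 to -1.14 and -1.09 to -0.61). Ccl3 and Ccl4 stayed higher there (0.06 to 1.34 and 0.41 to 1.48). In KO stroma Ccl2 stayed higher under the same alternatives (1.22 to 2.02), with 2.02 from the free RNA subtraction. Leaving out the leading cells was chosen after seeing the data, as were all alternatives for single genes other than those for Nfkbia in macrophage-like cells and Tnfrsf1a outside the blood and endothelial classes. No paired analysis was possible because there was 1 library per genotype. For the same reason no library could be left out.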
